A study of Mus musculus with 2 samples.

Results

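A set of 10 genes of mitochondrial biogenesis and dynamics was followed in the injured mouse kidney: *Ppargc1a*, *Ppargc1b*, *Nrf1*, *Tfam*, *Polg*, *Mfn1*, *Mfn2*, *Opa1*, *Dnm1l* and *Pink1*. They were taken by symbol from a deposited table of 19829 genes, and all 10 had a row. Messenger RNA of the kidney was sequenced in 1 library labelled WT+AKI and 1 labelled TG+AKI, where AKI is acute kidney injury. In the study these are male C57BL/6 mice given voclosporin, a calcineurin inhibitor, at 30 mg/kg per day from 8 weeks of age, followed by bilateral ischemia for 30 min and reperfusion (I/R) at 14 weeks. The WT mouse was a littermate control, and the TG mouse overexpressed *Inmt* (indolethylamine N-methyltransferase) in proximal tubules only. Both groups thus share the drug and the injury, and there was no sham or untreated library among these 2. The sources disagree on several points. The duration of voclosporin is given as 2 or 6 weeks and the time of sampling as 24 h or 48 h after I/R. The treatment field of both samples reads as untreated, and the title of the TG sample also calls the mouse a conditional knockout. The comparison asked how the kidney transcripts of these genes differed between the genotypes after the same insult.

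Mitochondrial biogenesis is the making of more mitochondria from existing ones. In the usual account, the coactivators PGC-1α and PGC-1β join transcription factors such as NRF1 and the estrogen-related receptors on nuclear genes for respiration, and among these is *Tfam*, whose product packages and transcribes mitochondrial DNA. Dynamics is the balance of fusion, carried out by the mitofusins on the outer membrane and OPA1 on the inner one, and fission, carried out by the GTPase DRP1. Damaged mitochondria are marked by the kinase PINK1 for removal by autophagy. Proximal tubule cells are rich in mitochondria and depend on oxidative metabolism, which makes these genes of interest in ischemic injury.

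*Pink1* and *Ppargc1a* stood furthest apart between the libraries, each about 2-fold higher in TG+AKI. *Opa1*, the gene of inner membrane fusion, was higher by 1.56-fold, whereas *Dnm1l*, the gene of the fission GTPase, was the only one of the 10 that was lower, at 0.854 of its level in WT+AKI. *Nrf1* and *Polg* did not differ beyond counting error as deposited, and were lower in TG+AKI when the libraries were scaled to equal totals. With 1 library per group there is no replicate check, the spread between mice is unknown, and no p-value between genotypes can be given. Intervals below are exact 95% intervals from the reads and cover counting error only.

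Over the listed genes 38542764 reads were recovered for WT+AKI and 36427421 for TG+AKI. A normalised value of 1 is 1 read per 1000000 of the scaled library, and 1 read was worth 0.0236 (WT+AKI) or 0.0302 (TG+AKI). The 10 genes together took 34035 of the TG+AKI reads and 30468 of the WT+AKI reads. The transgene check followed the labels, with *Inmt* at 403 in TG+AKI against 10.4 in WT+AKI, a ratio of 38.6 (35.1 to 42.5). The 10 genes were compared with the 10294 genes that reached a value of 10 in at least 1 library, and all 10 passed this filter. Fold changes are differences of log2(value + 1).

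The kidney label fitted its markers, but the 2 libraries differed in the summed level of several cell types. All 20 proximal tubule markers were higher in TG+AKI, and their sum went from 12187 to 46257. All 11 tubular injury markers were lower, from a sum of 13760.5 to 981, a 14.03-fold difference. The 10 fibroblast and mural markers were all lower (717 to 339), as were 12 of 14 macrophage and monocyte markers (246 to 99.9). Of the loop of Henle and distal tubule markers, 8 of 9 were higher (2160 to 3974), and of the collecting duct markers 9 of 11 (443 to 623). Podocyte (459 to 484) and endothelial (649 to 627) sums differed little, with 2 of 7 and 5 of 10 markers higher. The 3 of 8 neutrophil markers with a row were low in both libraries, with sums of 7.38 and 1.42, and all 9 lymphocyte markers with a row were below 1. Brown fat and muscle are tissues rich in PGC-1α, and of their defining genes *Ucp1*, *Cidea*, *Acta1* and *Ckm* had no row. Every gene with a row had at least 1 read in each library, so a missing row does not show absence from both. The fat list summed to 76.3 and 47.1 over 3 of 11 genes, and the muscle list was below 1 for each of its 3 genes with a row. Adrenal genes summed to 2.33 and 1.57 over 2 of 10 genes, and the 5 erythrocyte genes to 2.69 and 5.47. In whole kidney RNA, fewer cells of a type and less RNA per cell cannot be told apart, and the part of cell makeup in the differences below was not tested. *Pink1* and *Ppargc1a* were the only 2 of the 10 genes whose ratio exceeded that of the proximal tubule marker with the smallest ratio, 1.70, and the median ratio of those markers was 3.25.

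Of the 10 genes, 7 had a ratio whose interval lay above 1, 1 lay below and 2 included 1. At this depth most genes of the kidney pass such an interval: it lay above 1 in 41.8% and below 1 in 39.5% of the compared genes. One of the 10 genes, *Pink1*, was at least 2-fold higher in TG+AKI, beside 5.74% of the compared genes, and 0 were lower by as much, beside 7.12%. The median log2 fold change of the 10 was 0.21, beside 0.01 over all compared genes. Of all compared genes 5274 were higher and 5020 lower as deposited (51.2% higher), and the list counts below stand beside these shares. The libraries differed in makeup, so directions near 1 depended on how they were scaled. Scaling to equal totals shifted the median of all compared genes by -0.265 on the log2 scale, to -0.252. Scaling to a median ratio of 1 over well-expressed genes shifted it by -0.139, to -0.126. A move of a list towards lower under these scalings is thus shared with the compared genes as a whole. *Pink1*, *Ppargc1a*, *Opa1* and *Mfn2* were higher and *Dnm1l* lower under all 4 scalings tried, whereas the ratios of the other 5 turned from above 1 as deposited to below 1 at equal totals. There the intervals of *Nrf1*, *Polg* and *Tfam* lay below 1, and those of *Mfn1* and *Ppargc1b* included it.

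**Figure D1:**
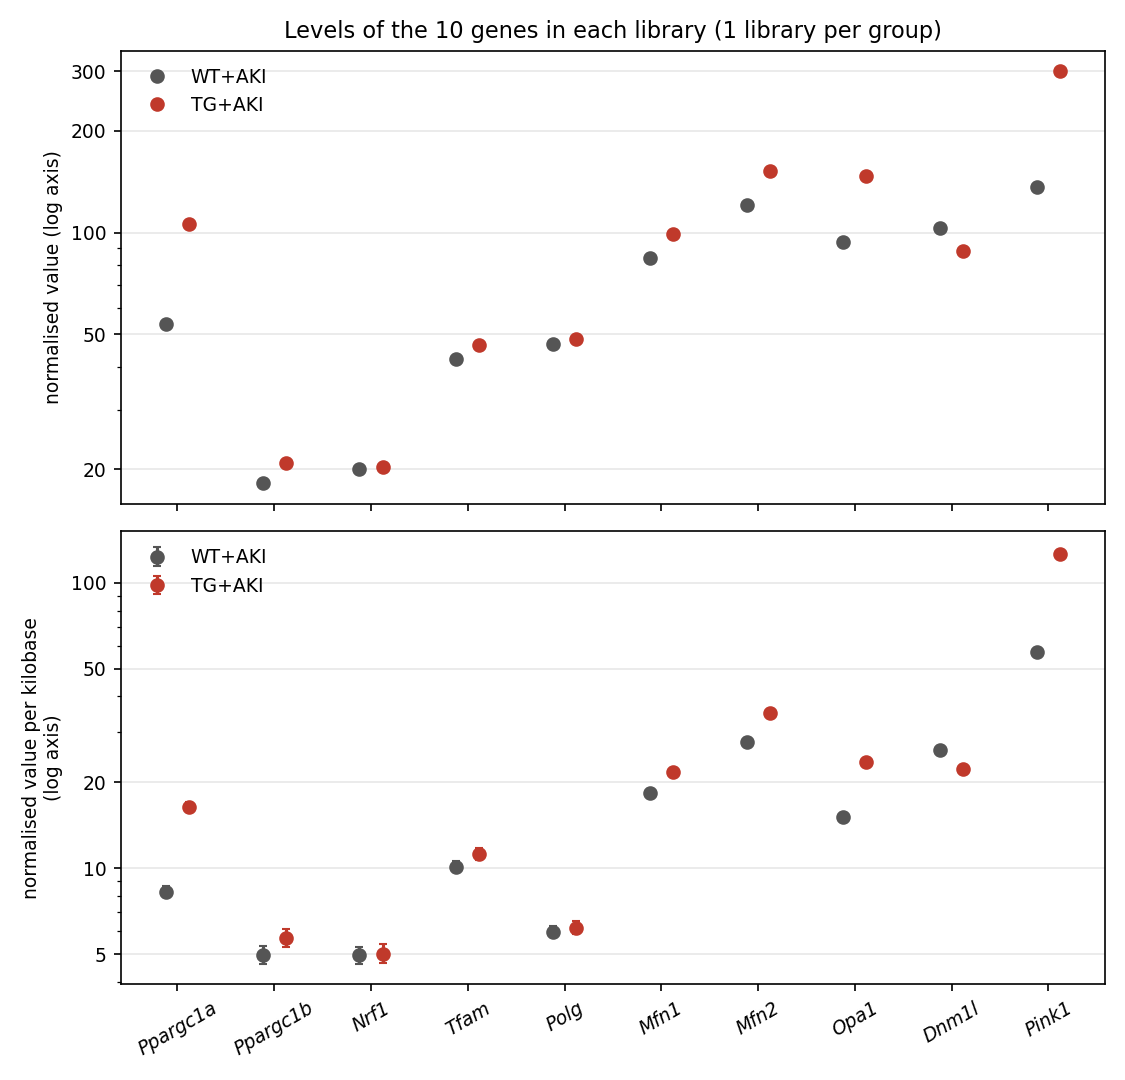
Normalised value (upper panel, log axis) and normalised value per kilobase of the longest annotated transcript (lower panel, log axis, bars: 95% counting intervals) of the 10 genes in WT+AKI (grey) and TG+AKI (red), 1 library each. *Pink1* lies highest in both libraries, and *Ppargc1a* and *Pink1* show the widest gaps; at equal totals *Nrf1*, *Polg*, *Tfam*, *Mfn1* and *Ppargc1b* would lie lower in TG+AKI.

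**Figure D2:**
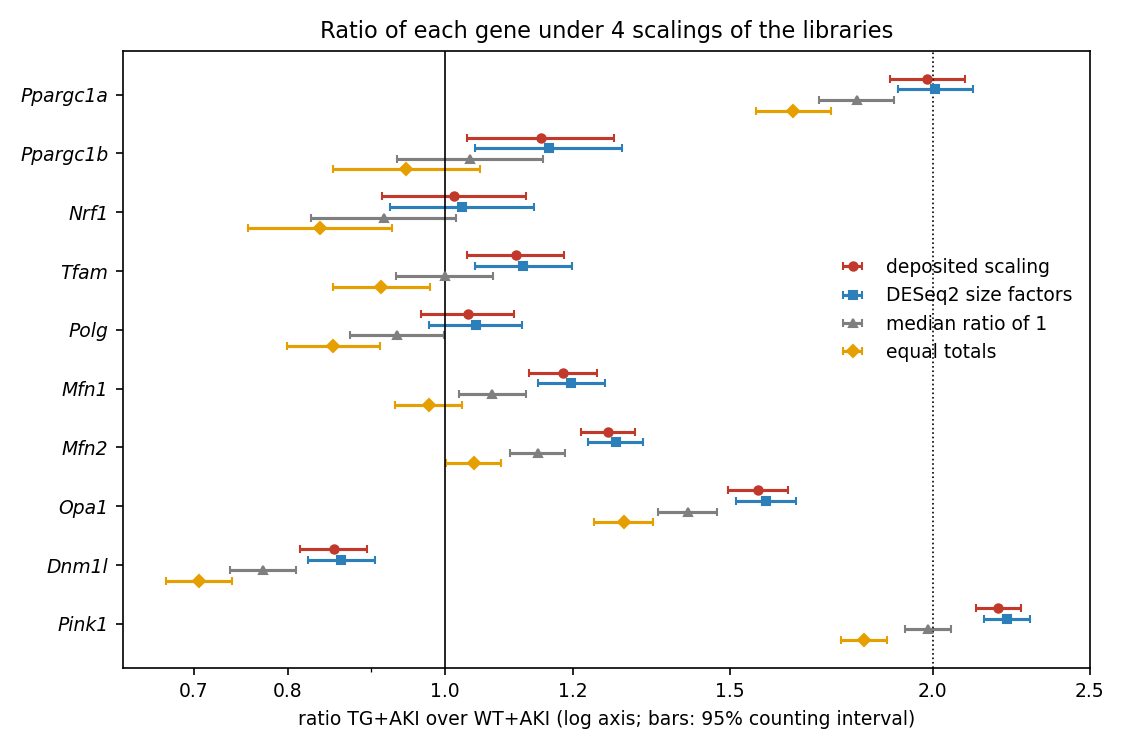
Ratio of TG+AKI over WT+AKI (log axis) with its 95% counting interval for each gene under 4 scalings; the solid line marks 1 and the dotted line 2. *Ppargc1a*, *Opa1*, *Mfn2* and *Pink1* stay right of 1 and *Dnm1l* left of it under every scaling shown, and the other 5 cross to the left at equal totals, *Nrf1*, *Polg* and *Tfam* with their whole interval.

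*Ppargc1a* (NCBI Gene 19017; chr5:51454249-52115853, mm10) encodes PGC-1α, the coactivator best known for driving oxidative metabolism and falling in injured kidneys. It stood at 106 (3520 reads) in TG+AKI against 53.5 (2270 reads) in WT+AKI. The ratio was 1.99 (1.88 to 2.09), a log2 fold change of 0.98, just short of the 2-fold line, and 621 of the 10294 compared genes had a higher fold change. At equal totals the ratio was 1.64 (1.56 to 1.73). *Ppargc1b* (Gene 170826; chr18:61291445-61400756) encodes PGC-1β, its close relative. Its value of 18.2 (771 reads) for WT+AKI compares with 20.8 (690 reads) for TG+AKI, a ratio of 1.15 (1.03 to 1.27) that became 0.947 (0.853 to 1.05) at equal totals. The gap between the libraries was thus large for the first coactivator and near the limit of counting error and scaling for the second.

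Comparing the 2 coactivators within a library removes the scaling. *Ppargc1a* took 74.6% of the reads of the pair in WT+AKI (73.1 to 76.2) and 83.6% in TG+AKI (82.5 to 84.7). The ratio of the 2 genes was 1.73 times as high in TG+AKI (1.54 to 1.95). *Pprc1*, the remaining relative of the PGC-1 family, went the other way, from 32.3 to 14.9, a log2 fold change of -1.06.

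The regulators around PGC-1 showed no common direction. Of 46 listed genes, all had a row and 43 passed the filter, of which 26 were higher and 17 lower in TG+AKI (median log2 fold change 0.08), a split that became 12 and 31 at equal totals. One was higher by at least 2-fold and 2 were lower by as much. *Esrrb*, a receptor of the estrogen-related family, went from 11.6 to 29.3, a log2 fold change of 1.26. *Sirt3*, a deacetylase of the mitochondrial matrix, went from 39.8 to 78.2 (log2 fold change 0.96). The lowest was *Nfe2l2*, the transcription factor of the antioxidant response, from 212 to 98.1 (log2 fold change -1.10). Intervals lay above 1 for 20 of the 43 compared regulators and below 1 for 14, such as *Ppara* (ratio 0.778) and *Mef2d* (0.647). These 2 and a few partners of PGC-1α were singled out after their values were seen. *Esrra*, the receptor through which much of its action on respiration runs, went from 50.2 to 93.3, a ratio of 1.86 (1.76 to 1.97). *Esrrg*, of the same family, had a ratio of 1.39 (1.31 to 1.48). *Perm1*, a muscle-enriched gene induced by PGC-1 and the estrogen-related receptors, was low in both libraries, at 0.448 (19 reads) and 5.41 (179 reads), a ratio of 12.1 (7.501 to 20.5). The estrogen-related receptors named here were all higher in TG+AKI, while *Prkaa1* and *Prkaa2*, the 2 catalytic subunits of the energy sensor AMPK, parted, with ratios of 0.765 (0.713 to 0.819) and 1.5 (1.45 to 1.55).

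*Nrf1* (Gene 18181; chr6:30047985-30153458) encodes nuclear respiratory factor 1, which binds the promoters of many respiratory genes. Its value was 20.03, from 849 reads, in the WT+AKI library and 20.3, from 672 reads, in the TG+AKI library, a ratio of 1.01 (0.914 to 1.12). At equal totals the ratio was 0.837 (0.756 to 0.928). The gene was therefore near the middle of all compared genes, 50.4% of which had a lower fold change.

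*Tfam* (Gene 21780; chr10:71225468-71238328) encodes the protein that coats mitochondrial DNA and starts its transcription. In WT+AKI its value was 42.2 (1789 reads) and with the transgene it was 46.6 (1545 reads), a ratio of 1.11 (1.03 to 1.18) that turned to 0.914 (0.853 to 0.979) at equal totals. *Polg* (Gene 18975; chr7:79446231-79467911) encodes the catalytic subunit of the polymerase that copies mitochondrial DNA. It stood at 47.0 (1992 reads) and 48.5 (1607 reads), a ratio of 1.03 (0.967 to 1.10) as deposited and 0.854 (0.799 to 0.912) at equal totals. For both genes the deposited difference was small beside the effect of scaling. Of the exon bases of *Polg*, 8.57% lie opposite those of *Fanci*, and whether strand was used in counting is not given in the sources used here.

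Other genes of mitochondrial DNA copying, transcription and upkeep were mostly a little higher in TG+AKI as deposited. Of 45 listed genes 44 had a row and 34 passed the filter, with 30 higher and 4 lower, a median of 0.31 and 1 gene at least 2-fold higher; at equal totals 18 were higher and 16 lower. *Clpx*, the unfolding subunit of a matrix protease, led with 80.0 and 172, a log2 fold change of 1.09. *Poldip2*, a polymerase-interacting protein, followed with 70.7 and 117 (log2 fold change 0.71). The lowest were *Top3a*, a topoisomerase needed to part mitochondrial DNA circles, and *Fastkd3*, an RNA-binding protein of the matrix, both at -0.34. Their values went from 11.3 to 8.7 and from 10.9 to 8.4, so both passed the filter only through WT+AKI. The partners of *Tfam* and *Polg* in transcription and copying were looked at after their values were seen. The mitochondrial RNA polymerase *Polrmt* had a ratio of 1.28 (1.18 to 1.39), the helicase *Twnk* 1.199 (1.09 to 1.32) and the single-strand binding protein *Ssbp1* 1.16 (1.07 to 1.26). *Polg2*, the accessory subunit of the polymerase, was below the filter at 6.23 and 6.76, and its interval included 1 (0.905 to 1.30). None of these 4 partners reached a 1.5-fold difference.

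Transcripts of mitochondrial DNA itself differed more than those of *Tfam* or *Polg*. All 13 mitochondrially encoded protein genes were higher in TG+AKI, 4 of them at least 2-fold, with a median log2 fold change of 0.90. They took 13.2% of the reads in WT+AKI and 18.9% in TG+AKI. *ND3*, a subunit of complex I, had the highest fold change, from 981 to 2616 (log2 fold change 1.41), followed by *ND4* from 7700 to 16316 (1.08). The lowest were *ND1*, from 13560.3 to 19922 (0.55), and *COX1*, the catalytic subunit of complex IV, from 40348 to 62271 (0.63). Nuclear copies of mitochondrial DNA share sequence with several of these genes: of the 100-base words of *ND3* 97.6% occur in another annotated gene, of *ND4* 60.8% and of *COX1* 30.8%, so their counts are uncertain.

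*Mfn1* (Gene 67414; chr3:32529443-32579225) and *Mfn2* (Gene 170731; chr4:147873586-147904909) encode the mitofusins, GTPases that tether and fuse outer membranes. *Mfn1* went from 84.0 (3560 reads) to 99.3 (3289 reads), a ratio of 1.18 (1.13 to 1.24) that became 0.978 (0.932 to 1.02) at equal totals. *Mfn2*, which also links mitochondria to the endoplasmic reticulum, went from 120.4 (5104 reads) to 152 (5027 reads), a ratio of 1.26 (1.21 to 1.31) and still 1.04 (1.002 to 1.08) at equal totals. Both mitofusins thus differed by similar factors. The share of *Mfn1* in the reads of the pair was 41.1% (40.1 to 42.1) in WT+AKI and 39.6% (38.5 to 40.6) in TG+AKI, and the ratio of the 2 genes changed by a factor of 0.938 (0.882 to 0.998).

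*Opa1* (Gene 74143; chr16:29579281-29663127) encodes the dynamin-like GTPase that fuses inner membranes and keeps cristae narrow. TG+AKI held it at 147 (4854 reads), against 93.9 (3982 reads) in WT+AKI. The ratio of 1.56 (1.496 to 1.63) corresponds to a log2 fold change of 0.64, exceeded by 1287 compared genes, and was 1.29 (1.24 to 1.34) at equal totals. *Opa1* therefore stood above both mitofusins in its difference between the libraries, with intervals that did not touch theirs.

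Genes of fusion and inner membrane shaping were more often higher than lower as deposited, with 26 and 7 of the 33 that passed the filter of 35 listed, but 17 and 16 at equal totals. Their median was 0.27, and 1 gene was at least 2-fold higher. *Chchd6*, a component of the MICOS complex that forms cristae junctions, went from 5.59 to 14.2, a log2 fold change of 1.21. It was the 1 gene at least 2-fold higher and passed the filter only through TG+AKI. *Apoo*, another MICOS component, went from 39.6 to 74.4 (0.89), but 43.5% of its 100-base words occur in a pseudogene. *Pgs1* and *Ptpmt1*, successive enzymes of cardiolipin synthesis, were lowest at -0.50 and -0.45. The proteases that cut OPA1, singled out after their values were seen, differed less than *Opa1*, with ratios of 1.246 (1.13 to 1.37) for *Oma1* and 1.06 (1.01 to 1.11) for *Yme1l1*.

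*Dnm1l* (Gene 74006; chr16:16312228-16359038) encodes DRP1, the GTPase that constricts mitochondria and also peroxisomes. It stood at 103 (4372 reads) in WT+AKI but at 88.0 (2916 reads) in TG+AKI. It was 1.17-fold lower in TG+AKI (1.12 to 1.23), a log2 fold change of -0.23, and 30.6% of the compared genes had a lower fold change. The ratio lay further below 1 at equal totals, at 0.706 (0.673 to 0.740). Exons of a gene on the opposite strand, *Gm49521*, cover 4.67% of the exon bases of *Dnm1l*.

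*Opa1* and *Dnm1l* exchanged places in their read counts. In WT+AKI *Opa1* took 47.7% of the reads of the pair (46.6 to 48.7) and in TG+AKI 62.5% (61.4 to 63.5). Reads of *Opa1* per read of *Dnm1l* went from 0.911 to 1.67, a factor of 1.83 (1.71 to 1.95) that no scaling of the libraries can alter.

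**Figure D3:**
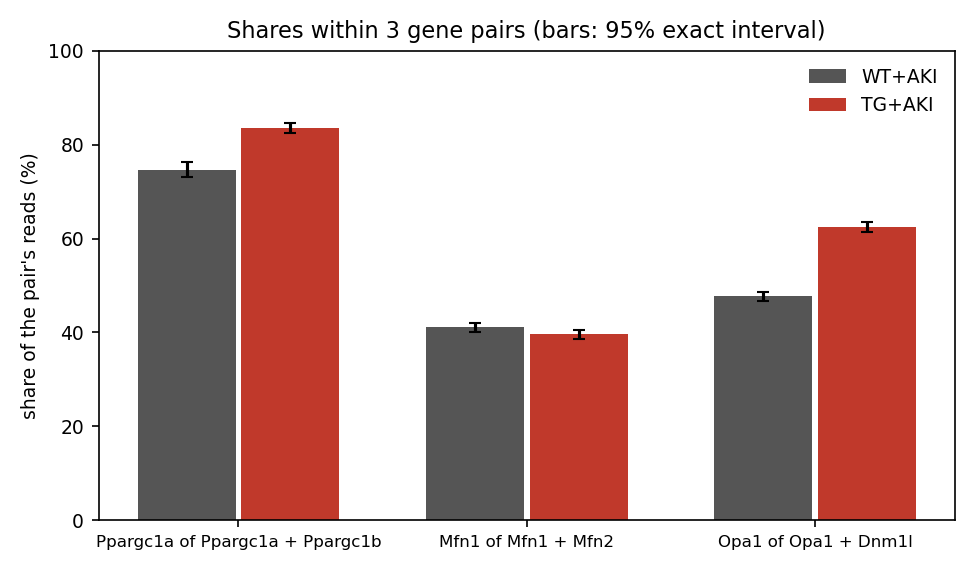
Share of the first gene in the reads of 3 gene pairs (y axis, percent, from 0 to 100) in WT+AKI (grey) and TG+AKI (red); bars show exact 95% intervals. The share of *Opa1* beside *Dnm1l* goes from 47.7% to 62.5% and that of *Ppargc1a* beside *Ppargc1b* from 74.6% to 83.6%, while that of *Mfn1* beside *Mfn2* is 41.1% and 39.6%.

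The remaining fission and transport genes were split evenly as deposited, much as all compared genes were (51.2% higher). Of 27 listed genes 25 had a row and 22 passed the filter, 11 of them higher and 11 lower, with a median of 0.02. At equal totals 4 were higher and 18 lower, where the median of all compared genes was -0.252. *Inf2*, a formin that builds actin at fission sites, went from 39.8 to 11.8 (log2 fold change -1.67), and *Armcx2*, of a family tied to mitochondrial transport, from 17.8 to 11.5 (-0.59). *Mtfp1*, an inner membrane protein that favours fission, went from 7.15 to 19.4 (1.32), and passed the filter only through TG+AKI. *Rhot2*, a GTPase that anchors mitochondria to motors, was next at 0.38, although 39.1% of its 100-base words occur in another gene. The receptors of DRP1 on the outer membrane were singled out after their values were seen. The ratios were 1.19 (1.13 to 1.254) for *Fis1* and 1.21 (1.15 to 1.28) for *Mff*, whereas those of *Mief1*, 0.994 (0.917 to 1.08), and *Mief2*, 0.910 (0.783 to 1.06), had intervals that included 1. None of the 4 receptors differed by more than 1.5-fold.

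*Pink1* (Gene 68943; chr4:138313409-138326296) encodes the kinase that builds up on damaged mitochondria and marks them for removal. In TG+AKI its value was 299 (9915 reads), against 136 (5779 reads) without the transgene. The ratio was 2.196 (2.13 to 2.27), a log2 fold change of 1.13, and 473 of the compared genes had a higher one. At equal totals the ratio was 1.81 (1.76 to 1.87), and with a median ratio of 1 it was 1.99 (1.92 to 2.05), so the 2-fold line was crossed only under the deposited and DESeq2 scalings. Other annotated genes on the same strand, among them *Mir7019*, cover 6.7% of its exon bases.

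Mitophagy genes leaned towards TG+AKI as deposited. Of 45 listed genes 44 had a row and 42 passed the filter, 31 higher and 11 lower with a median of 0.20, which became 19 higher and 23 lower at equal totals. *Gabarapl1*, a membrane-bound adaptor of autophagosomes, had the highest fold change, from 286 to 781 (log2 fold change 1.45). *Lrrk2*, a kinase of vesicle traffic, went from 86.4 to 168 (0.95). The autophagy receptor *Optn* was at -0.50. *Hk2*, a hexokinase that sits on mitochondria and is low in the healthy proximal tubule, went from 10.5 (447 reads) to 0.574 (19 reads), 18.4-fold lower (11.6 to 30.8). It passed the filter only through WT+AKI. Receptors that act without PINK1, singled out after their values were seen, differed less than *Pink1*, with ratios of 1.251 (1.204 to 1.30) for *Bnip3*, 1.27 (1.22 to 1.33) for *Bnip3l* and 1.14 (1.04 to 1.24) for *Fundc1*. Of the 100-base words of *Bnip3l*, 15.3% occur in another gene, and of *Bnip3*, 9.41%.

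Nuclear genes of energy metabolism that are usual targets of PGC-1α and ERRα were mostly higher in TG+AKI. All 41 listed genes passed the filter, 35 higher and 6 lower, with a median of 0.51; at equal totals 14 were lower. *Vegfa*, the angiogenic factor that PGC-1α can induce, went from 129 to 286 (log2 fold change 1.15), and *Cyc1*, cytochrome c1 of complex III, from 241 to 479 (0.99). At least 2-fold lower were *Pdk4*, the kinase that shuts pyruvate out of the citrate cycle, from 221 to 21.5 (-3.30), and *Ucp2*, an inner membrane carrier, from 206 to 51.3 (-1.98). The proximal tubule markers moved in the same direction as most of this list, from 12187 to 46257 in sum, and their part in it was not tested.

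**Figure D4:**
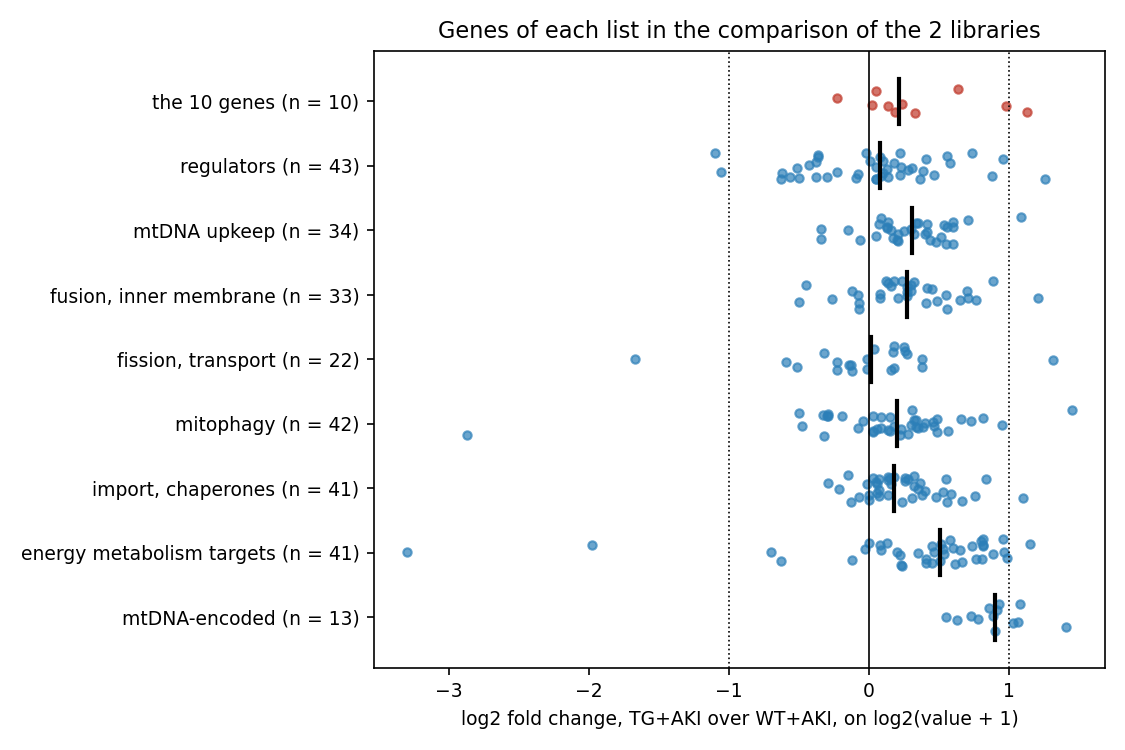
Log2 fold change on log2(value + 1) (x axis, TG+AKI over WT+AKI, deposited scaling) of each gene that passed the filter, for the 10 genes (red) and 8 lists (blue); black bars are medians, the solid line marks 0 and the dotted lines a 2-fold difference. Medians run from 0.02 for fission and transport to 0.90 for the mitochondrially encoded genes; at equal totals the medians of regulators, fission, mitophagy and import fall below 0, and with a median ratio of 1 those of regulators and fission.

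Protein import and chaperone genes, which bring nuclear-encoded proteins into the organelle, were 34 higher and 7 lower of the 41 that passed the filter of 42 listed, with a median of 0.18, and 17 higher and 24 lower at equal totals. *Pmpcb*, a subunit of the matrix peptidase that also handles imported PINK1, had the highest fold change, from 105 to 225 (log2 fold change 1.10). *Dnajc19*, a cochaperone of the import motor, went from 41.4 to 74.9 (0.84). *Gfer* (-0.29), a sulfhydryl oxidase of the intermembrane space, and *Tomm34* (-0.21), a cytosolic import cochaperone, were lowest.

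Levels of different genes were compared per kilobase of the longest annotated transcript. In WT+AKI *Pink1* was highest at 57.4 per kilobase, followed by *Mfn2* at 27.7, *Dnm1l* at 26.0, *Mfn1* at 18.4 and *Opa1* at 15.1. *Tfam* was at 10.1, *Ppargc1a* at 8.28 and *Polg* at 5.99, and *Ppargc1b* at 4.97 and *Nrf1* at 4.95 could not be ordered, since their intervals overlapped. By this length the kinase and the dynamin-related GTPases stood above the biogenesis genes. In TG+AKI *Pink1* reached 126 per kilobase and *Mfn2* 34.97. *Opa1* at 23.5 (22.9 to 24.2) now lay above *Mfn1* at 21.8 (21.03 to 22.5). *Dnm1l* at 22.2 (21.4 to 23.0) lay between them, and its interval overlapped both. *Ppargc1a* at 16.4 passed *Tfam* at 11.2, and the lowest levels were again those of *Polg* (6.19), *Ppargc1b* (5.70) and *Nrf1* (5.02), each of which overlapped its neighbour. Most of this order depends on the transcript length used: with the median length of the annotated transcripts, 19 of the 20 ranks changed. *Mfn1* (118.8) was then highest in WT+AKI, above *Pink1* (79.7). *Polg* (58.2) and *Tfam* (54.2) then lay above *Mfn2* (49.6), *Dnm1l* (35.4) and *Opa1* (29.4) in WT+AKI. In TG+AKI *Ppargc1a* (38.6) then stayed below *Tfam* (59.9), and *Opa1* (45.9) below *Mfn1* (140.5). *Nrf1* and *Ppargc1b* were the lowest of the 10 in both libraries by either length.

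The promoters of the genes that differed most are shown because the usual account links these genes through shared transcription factors. RefSeq promoter windows (GRCm38.p6, the assembly of mm10) run from 250 bases before to 50 bases after a transcription start. Among 32851 such windows, the 13 used for the set came from 9 of the 10 genes. The 250 bases before the start are given 5′ to 3′ on the strand of the gene, for *Ppargc1a* at chr5:51567726-51567975 (minus strand), *Pink1* at chr4:138326297-138326546 (minus strand) and *Opa1* at chr16:29579084-29579333 (plus strand). Capitals mark a match to a searched motif on either strand.
Ppargc1a: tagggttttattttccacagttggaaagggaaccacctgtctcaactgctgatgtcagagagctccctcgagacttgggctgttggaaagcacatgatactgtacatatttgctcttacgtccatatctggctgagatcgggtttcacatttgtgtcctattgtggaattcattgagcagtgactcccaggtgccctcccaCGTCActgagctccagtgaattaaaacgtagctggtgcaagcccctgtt
Pink1: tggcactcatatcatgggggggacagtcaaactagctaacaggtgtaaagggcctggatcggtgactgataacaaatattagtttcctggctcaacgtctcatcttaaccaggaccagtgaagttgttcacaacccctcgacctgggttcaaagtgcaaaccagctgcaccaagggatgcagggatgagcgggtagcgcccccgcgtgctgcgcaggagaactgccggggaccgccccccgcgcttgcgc
Opa1: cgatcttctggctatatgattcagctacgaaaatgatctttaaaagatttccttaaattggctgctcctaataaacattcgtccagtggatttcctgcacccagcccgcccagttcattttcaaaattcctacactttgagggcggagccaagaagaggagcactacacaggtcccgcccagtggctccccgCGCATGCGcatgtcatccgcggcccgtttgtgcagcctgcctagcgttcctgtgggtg

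The *Opa1* window held the core of the NRF1 motif, CGCATGCG, at 58 to 51 bases before the start. This motif was in 1.87% of all windows and in none of the windows of the other 8 genes. The capitals in *Ppargc1a*, 49 to 45 bases before its start, are the reverse complement of TGACG, one side of the cyclic AMP response element, which was in 20.8% of all windows and also in those of *Mfn1*, *Mfn2* and *Polg*. The whole element, TGACGTCA, was in 1.79% of windows and in none of the windows of the 9 genes. The single site of the estrogen-related receptors, AAGGTCA, was in 4.72% of windows and also in none of theirs. The only *Ppargc1a* window used lies inside the gene span given above, so any other start of this gene was not searched. No window of *Ppargc1b* was used, so the motif counts say nothing about its promoter. The printed *Opa1* bases end at 29579333, past the start of its gene span at 29579281, and its NRF1 core lies across that edge. The ETS motif CCGGAAG, bound by the factor also called NRF2 (GABP), was in 8.86% of windows and in those of *Dnm1l*, *Mfn1*, *Polg* and *Tfam*. The YY1 motif AANATGGC was in 6.05% of windows and, of the 9 genes, in *Mfn1*. The *Pink1* window held none of the 6 motifs. All motifs were searched on both strands, TGACG also lies within TGACGTCA, and a match describes letters and not binding.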

How the data were processed

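Kidney mRNA libraries (TruSeq Stranded kit) were aligned and counted by the authors; the submitters' processing notes name STAR 2.7.3a, HTSeq, Cufflinks 2.2.1, FastQC, DESeq2, edgeR and mm10. The annotation and strand setting are not given in the sources used here. The deposited signal values are read counts divided by a scaling factor. They matched reads per 1000000 after TMM scaling in edgeR, although the study's methods name DESeq2 for normalisation. Whole reads were recovered by division (100% of values within 0.05 read).

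Groups came from the library names. The 10 genes, the 8 lists and the 14 marker lists were chosen with earlier results of these data known. Genes reaching a value of 10 (424.0 WT+AKI reads or 331.2 TG+AKI reads) in either library were compared on log2(value + 1), and 2-fold was the call. Ratios carry exact conditional (Clopper-Pearson) 95% intervals. The code was run on simulated reads with counting error only, the error these intervals assume, so that run could not test the spread between mice or libraries. Named genes are the 10, *Inmt*, and the 2 highest and 2 lowest fold changes of each list; others are marked. Columns used hold 1 library each. Of 294 list symbols 5 had no row and were not analysed here. Symbols were matched through RefSeq (GRCm38.p6; 99.8% of IDs), and transcript lengths and shared 100-base words came from GENCODE M21. Python 3.11.15, scipy 1.17.1, edgeR 4.0.16 and DESeq2 1.42.0 were used. One listed gene is not reported here.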

Additional observations from a re-analysis of the deposited data

How the results depend on the processing

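The alternatives were pseudocounts of 0.1 and 10, equal totals, a median ratio of 1, DESeq2 size factors, TMM recomputed from the reads, a call at 1.5-fold, no filter, a filter of 50, and lists without shared genes. At equal totals 4 of the 10 genes had intervals above 1, 4 below 1 and 0 were at least 2-fold higher; with a median ratio of 1, 2 lay below 1 and 0 were at least 2-fold higher; at 1.5-fold 3 were called higher. The log2 fold changes that turned negative at equal totals were those of *Ppargc1b* (-0.07), *Tfam* (-0.13), *Mfn1* (-0.03), *Nrf1* (-0.24) and *Polg* (-0.22). The last 2, whose intervals included 1 as deposited, were also negative with a median ratio of 1 (-0.12 and -0.10). Of 60 recomputed values 40 moved by less than counting error. These 60 include the recomputed TMM factors, which gave back the deposited scaling, and DESeq2 size factors close to it (factor 1.011), so the tally is no measure of robustness. At equal totals the log2 fold change of each of the 10 genes moved by more than counting error.

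At equal totals the numbers of genes higher and lower were 12 and 31 for regulators, 18 and 16 for mitochondrial DNA upkeep, 17 and 16 for fusion, 4 and 18 for fission, 19 and 23 for mitophagy and 17 and 24 for import, and 14 energy metabolism genes were lower. The median of all compared genes was itself -0.252 at equal totals and -0.126 with a median ratio of 1. With a median ratio of 1 they were 17 and 26 for regulators, and 9 upkeep, 18 mitophagy, 17 import and 10 energy metabolism genes were lower. Without a filter 9 upkeep genes were lower. With a filter of 50, which leaves fewer genes, 10 regulators were lower, 8 upkeep genes were higher and 0 lower, 15 fusion genes higher and 3 lower, 4 fission and 6 mitophagy genes lower, and 19 import genes higher and 2 lower. Medians reversed for regulators (-0.19 at equal totals, -0.06 with a median ratio of 1), fission (-0.25, -0.12, and -0.01 without a filter), mitophagy (-0.07 at equal totals) and import (-0.07 at equal totals).

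Over all genes, 44.6% of the 2-fold calls were higher as deposited, 24.9% at equal totals and 33.9% with a median ratio of 1; which scaling is right was not tested. No paired analysis was possible because each group has 1 library, and leaving out a replicate was not possible for the same reason.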
